A study of Mus musculus with 6 samples.

Results

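Transcripts of the proteins that shorten poly(A) tails, remove the 5′ cap and degrade mRNA were measured in adult mouse forebrain cortex with and without neuronal deletion of Dicer. The genes were listed by their known function in mRNA decay, with earlier results of these data known. Of 46 listed genes, 44 had a probe set assigned to a single gene symbol, among 19938 genes tested in all. Upf3a and Upf3b, adaptors of nonsense-mediated decay, had no such probe set and were not analysed here. None of the 44 was removed by a filter on low values, and for each gene the probe set with the highest mean was used.

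The 3 animals labelled Dicer KO carried the genotype CamKII-Cre/+;Dicer flox/flox, so that Cre recombinase, made from the CamKII promoter in excitatory neurons of the forebrain, deletes Dicer there. The 3 controls were littermates, of genotype CamKII-Cre/+;Dicer flox/+ in some and of genotype +/+;Dicer flox/flox in others, or of 1 of these only, since each control is labelled with both. All were adult, without a stated age, on the C57BL/6 background, and each animal gave 1 array. Floxed Dicer alleles occur in both groups, and Cre may occur in some controls. Other cells of the cortex keep Dicer, so the labelled KO arrays read a mixture of targeted and untargeted cells. In all arrays, fewer cells of a type and less RNA per cell cannot be told apart.

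Dicer cuts microRNA precursors into mature microRNAs. An Argonaute protein loaded with a microRNA recruits GW182 proteins, and these bring the PAN2-PAN3 and CCR4-NOT deadenylases to the target mRNA. Once the poly(A) tail is short, the Lsm1-7 ring, Patl1 and Ddx6 promote decapping by Dcp2, and Xrn1 digests the body of the mRNA in the 5′ to 3′ direction. The same enzymes act on mRNAs chosen by other RNA-binding proteins, and in neurons several of them gather in P-bodies and RNA granules.

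All values below are RMA log2 expression values, and differences are the labelled KO mean minus the control mean on that scale. Median values over all 35557 rows lay between 7.13 and 7.22 in the 6 arrays. Excitatory neuron markers, 7 of 8 of which were measured, all read at least 8.36, against a median of 7.64 over all genes tested. Dicer1 itself read 9.58, 9.68 and 9.46 in the labelled KO arrays, against 9.17, 9.21 and 9.18 in the controls. Which exons its probe set reads was not examined, so this does not check the labels, and directions are those of the arrays labelled Dicer KO. Control array 1 stood apart in 5 olfactory bulb markers, which averaged 1.15 above the control mean there, against -0.66 to -0.51 in the labelled KO arrays and -0.60 and -0.55 in the other controls. Y-linked Eif2s3y was high (9.13 and 9.29) in labelled KO arrays 1 and 3 and low (4.25) in labelled KO array 2. Among the controls it was high (9.07) in array 2 and low (3.94 and 4.44) in arrays 1 and 3, so both groups mix males and females. None of the 44 genes is on the X or Y chromosome.

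No mRNA decay factor passed the threshold of an adjusted p under 0.05 over all genes. The same limma fit called 56 genes in all, 0.281% of those tested. The differences leaned to higher values in the labelled KO arrays: 34 of the 44 genes were above 0, against 47.3% of all genes tested. Their median difference was 0.10, against -0.0092 over all genes, and the range was -0.16 (Smg5) to 0.54 (Cpeb1). At an unadjusted p under 0.05, 11 of 44 were higher, against 7.01% of all genes, and none was lower, against 7.39% of all genes. All genes were not matched to the 44 for level, and only 3 of the 44 had a mean below the median of all genes. With genes of mean below 6 left out, 11 of 44 were higher, against 8.33% of all genes kept. In 12 of the 44 every labelled KO array lay above every control array, against 9.3% of all genes, and in none did every labelled KO array lie below, against 11% of all genes. The smallest adjusted p was 0.0757, for Cnot6, the 1 gene with an adjusted p under 0.1, a level reached in the higher direction by 0.707% of all genes. With 3 arrays a group, the smallest two-sided p of an exact permutation test is 0.1, so no such test is given for single genes.

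**Figure D1:**
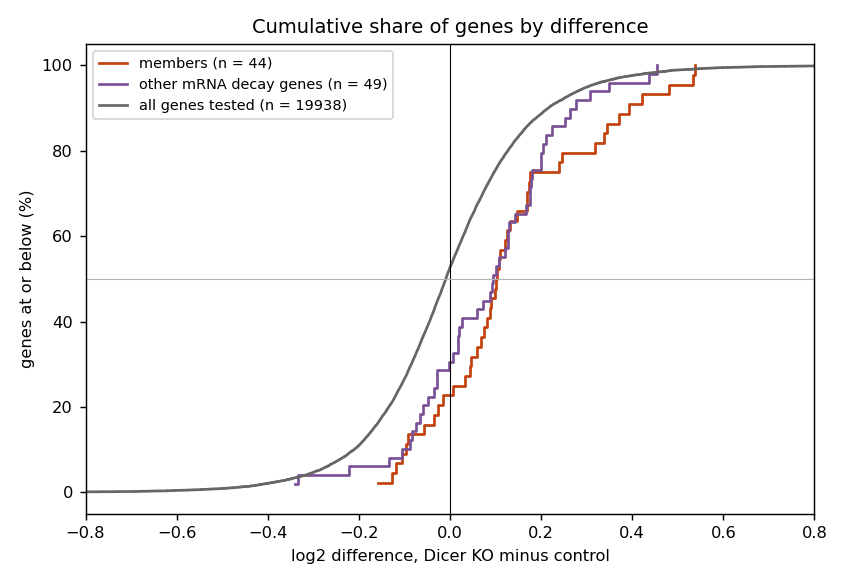
Cumulative share of genes, in percent, by log2 difference (labelled KO minus control) for the 44 mRNA decay factors, 49 other mRNA decay genes and all 19938 genes tested. The curve of the 44 genes crosses 50% at 0.10 and that of all genes just below 0.

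These counts depended on single arrays. Without labelled KO array 2, 5 genes were higher at an unadjusted p under 0.05, against 5.23% of all genes in that fit, and the median difference was 0.068. Without control array 1 they were 8 genes, against 4.59% of all genes, and the median was 0.067. When 1 of the other 4 arrays was left out, 9 to 12 genes were higher, against 5.72% to 8.24% of all genes, and the median lay between 0.10 and 0.13. Without labelled KO array 3, Cnot2 was also lower at an unadjusted p under 0.05; it is singled out here after its values were seen. With weights estimated for each array, limma called 4 of the 44 genes, Cnot6, Cnot6l, Lsm5 and Xrn1, beside 1116 genes or 5.60% of all genes, with a weight of 5.18 for labelled KO array 1 and 0.43 for labelled KO array 3.

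Within the CCR4-NOT complex, the main cytoplasmic deadenylase, the largest differences were in the pair of closely related catalytic subunits Cnot6 and Cnot6l. Of 9 measured genes of the complex, 8 were above 0, with a median of 0.17. Cnot6 read 10.08, 10.23 and 10.19 in the labelled KO arrays, against 9.70, 9.77 and 9.58 in the controls. The groups did not overlap, and the gap between them was wider than the spread within either. The difference was 0.48 ± 0.091 (SE; limma adjusted p = 0.0757), 1.40-fold, and it stayed between 0.43 and 0.52 with any 1 array left out. Cnot6l read 10.21, 10.09 and 10.48 in the labelled KO arrays, against 9.88, 9.89 and 9.83 in the controls. Here too the groups were separate, with labelled KO array 3 the highest. The difference was 0.39 ± 0.11 (SE; adjusted p = 0.157), 1.31-fold, and 0.28 without labelled KO array 3.

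The other catalytic pair of the complex, Cnot7 and Cnot8, showed smaller differences. Cnot7 read 10.44, 10.57 and 10.39 in the labelled KO arrays, against 10.42, 10.45 and 10.40 in the controls. Its difference was 0.045 ± 0.085 (SE; adjusted p = 0.860), with a 95% interval of -0.15 to 0.24, against 0.28 to 0.69 for Cnot6. Cnot8 read 9.72, 9.72 and 9.46 in the labelled KO arrays, against 9.52, 9.53 and 9.64 in the controls. Its difference was 0.067 ± 0.10 (SE; adjusted p = 0.816), with a 95% interval of -0.16 to 0.29. In both genes labelled KO array 3 lay below all 3 controls, and a dimmer second probe set of Cnot8 gave 0.13. Whether the 2 pairs of catalytic subunits differed from each other was not tested.

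Cnot1, the scaffold on which the complex assembles, had closely grouped controls. It read 10.87, 10.96 and 10.80 in the labelled KO arrays, against 10.64, 10.63 and 10.65 in the controls. The groups were separate, with a difference of 0.24 ± 0.082 (SE; adjusted p = 0.232). A second, dimmer probe set of Cnot1 read 10.25, 10.50 and 9.80 against 10.07, 10.18 and 10.01, so its groups overlapped, and its difference was 0.094. Among the remaining subunits, Cnot10 was at 0.17 with groups that did not overlap, and Cnot3, a regulatory subunit, was at 0.18 with overlap. Cnot4, a ubiquitin ligase associated with the complex, was at 0.087. Cnot2, which pairs with Cnot3 in the NOT module, was the 1 subunit below 0, at -0.13 (adjusted p = 0.627).

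The promoter windows of Cnot6 and Cnot6l are shown because these were the subunits with the smallest p-values. Each runs from 250 bases before to 50 bases after the most upstream annotated start, from RefSeq on GRCm38.p6, 5′ to 3′ on the strand of the gene. Capitals mark GGGCGG (the GC box), CCAAT (the CCAAT box) and CCGGAAG (a core recognised by ETS factors) on either strand, and overlapping matches run together. The Cnot6 window is chr11:49712673-49712972 on the minus strand, and that of Cnot6l, the first of 3, is chr5:96161941-96162240 on the minus strand.
Cnot6: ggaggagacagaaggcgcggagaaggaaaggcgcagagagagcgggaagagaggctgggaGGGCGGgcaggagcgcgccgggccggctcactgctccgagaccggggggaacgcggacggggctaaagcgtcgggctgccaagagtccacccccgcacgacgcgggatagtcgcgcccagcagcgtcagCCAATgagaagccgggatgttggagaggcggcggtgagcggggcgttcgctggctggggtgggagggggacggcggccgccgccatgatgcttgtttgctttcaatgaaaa
Cnot6l: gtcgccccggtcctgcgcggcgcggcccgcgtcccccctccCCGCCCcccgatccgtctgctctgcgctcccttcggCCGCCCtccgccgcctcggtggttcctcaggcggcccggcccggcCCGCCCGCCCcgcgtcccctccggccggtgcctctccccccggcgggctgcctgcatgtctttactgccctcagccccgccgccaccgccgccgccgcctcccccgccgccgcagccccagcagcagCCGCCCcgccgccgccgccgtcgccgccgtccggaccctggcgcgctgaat
The Cnot6 window holds 1 GC box, 1 CCAAT box and 33 CG dinucleotides, and the Cnot6l window 5 GC boxes, no CCAAT box and 49 CG dinucleotides. Promoter windows were in the table for 37 of the 44 genes. GC boxes were in 73% of these windows, against 35.9% of the most upstream windows of 27025 genes. The ETS core was in 21.6% of them against 9.14%, the CCAAT box in 37.8% against 38%, and the TATA box (TATAAA, either strand) in 8.11% against 14.2%. The median window of these genes held 25 CG dinucleotides, against 7 for all genes. The 27025 genes were neither limited to the genes tested here nor matched for expression level. Only 3 of the 44 genes had a mean below the median over all genes tested. Whether the shares differ from those of other genes of like level was not tested. A match describes letters only and does not show that a factor binds there.

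Among the other deadenylases, Pan2 had a difference of 0.53 that depended on 1 array. Pan2 is the catalytic subunit of PAN2-PAN3, which trims long tails before CCR4-NOT acts. It read 8.75, 9.31 and 8.49 in the labelled KO arrays, against 8.48, 8.41 and 8.06 in the controls. The groups were separate by a small margin: labelled KO array 3 lay close to control array 1. The difference was 0.53 ± 0.20 (SE; adjusted p = 0.266), and 0.30 without labelled KO array 2. Pan3, its pseudokinase partner, was at 0.082 ± 0.095, and Parn, a deadenylase with nuclear and cytoplasmic substrates, at 0.17 ± 0.12 (SE). Both overlapped between groups.

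**Figure D2:**
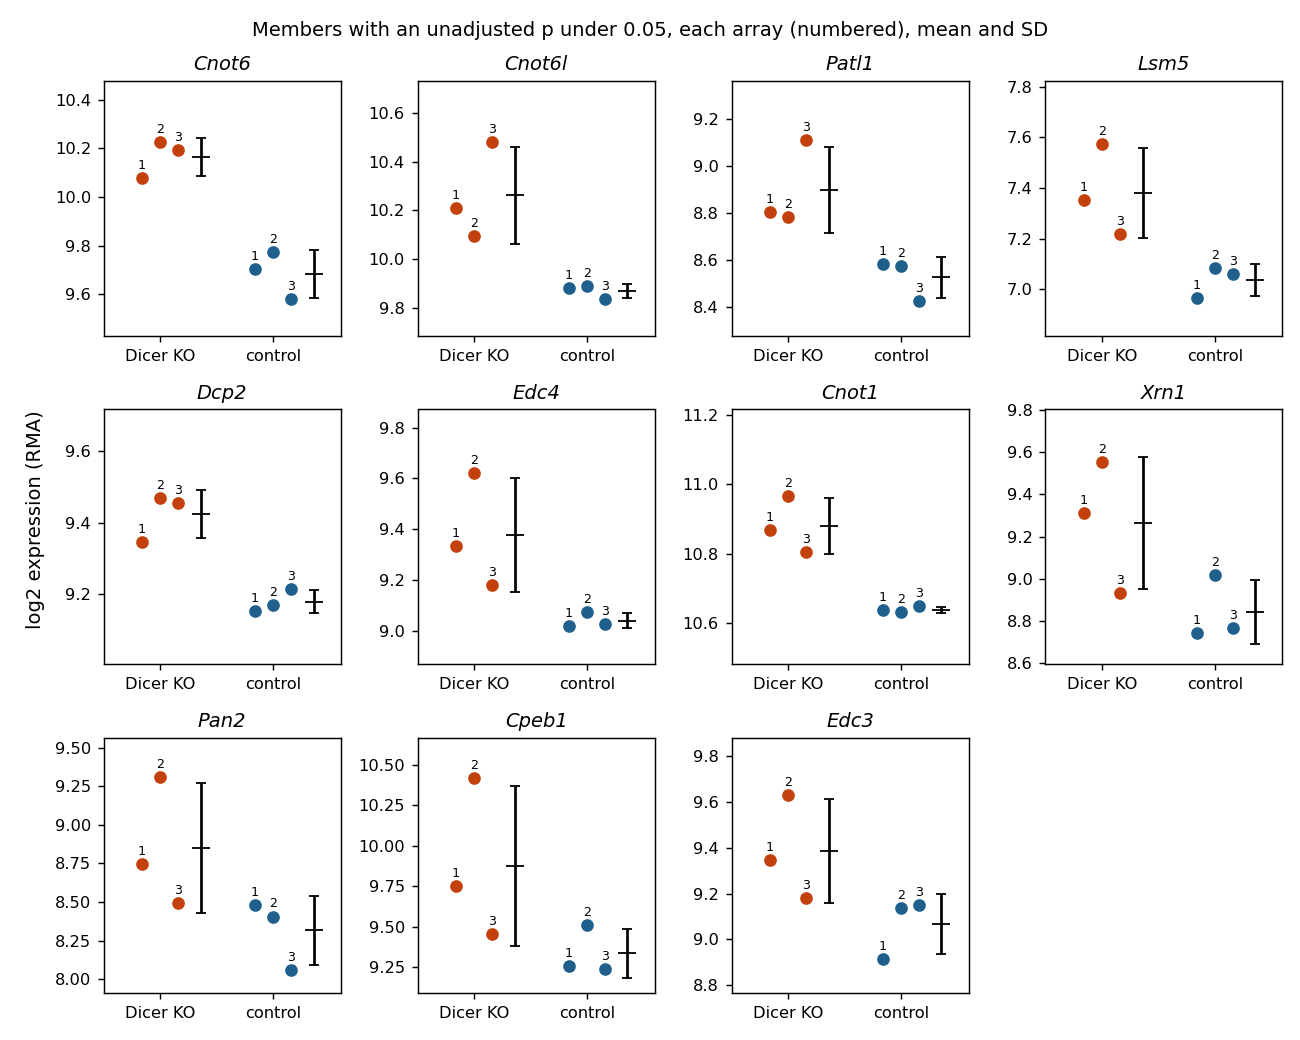
RMA log2 values of the 11 genes with an unadjusted p under 0.05, 1 panel per gene, labelled KO arrays left (orange) and control arrays right (blue), numbered, with the mean and SD of each group as a black bar. In Cnot6 the labelled KO arrays sit between 10.08 and 10.23 and the controls between 9.58 and 9.77, while in Xrn1 and Cpeb1 the groups overlap.

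In the decapping group, the enzyme and its protein cofactors were all above 0, while most of the Lsm ring was near 0. Of all 14 genes of this group, 10 were above 0, against 47.3% of all genes, with a median of 0.052. The roles as listed beforehand did not set the Lsm genes apart. Leaving these aside, all 7 remaining genes were above 0, with a median of 0.25. In 4 of them every labelled KO array lay above every control, as in 9.3% of all genes. Dcp2, the decapping enzyme, read 9.35, 9.47 and 9.46 in the labelled KO arrays, against 9.15, 9.17 and 9.21 in the controls. The arrays of each group lay close together and the groups were separate. The difference was 0.25 ± 0.082 (SE; adjusted p = 0.222), between 0.22 and 0.28 with any 1 array left out.

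Patl1, which bridges the deadenylated 3′ end to the decapping enzyme, read 8.80, 8.78 and 9.11 in the labelled KO arrays, against 8.58, 8.57 and 8.43 in the controls. The groups were separate, with labelled KO array 3 the highest. Its difference was 0.37 ± 0.11 (SE; adjusted p = 0.179), 1.29-fold, and 0.27 without labelled KO array 3. Edc4, the scaffold that joins Dcp1 and Dcp2, read 9.33, 9.62 and 9.18 in the labelled KO arrays, against 9.02, 9.07 and 9.03 in the controls. Edc3, an enhancer of decapping and P-body scaffold, read 9.35, 9.63 and 9.18 in the labelled KO arrays, against 8.92, 9.14 and 9.15 in the controls. In both, labelled KO array 2 was the highest and labelled KO array 3 the lowest of its group, in Edc3 just above the controls. Differences were 0.34 ± 0.12 for Edc4 and 0.32 ± 0.13 for Edc3 (SE; adjusted p = 0.232 and 0.301), and without labelled KO array 2 they were 0.22 and 0.20.

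The remaining cofactors overlapped between groups. Ddx6, the DEAD-box helicase that represses translation and activates decapping, read 12.06, 12.14 and 12.34 in the labelled KO arrays, against 11.98, 12.14 and 12.25 in the controls. The arrays of both groups interleave. Its difference was 0.058 ± 0.11 (SE; adjusted p = 0.855), with a 95% interval of -0.19 to 0.30. The Dcp2 activator Dcp1a was at 0.12 ± 0.12 and its paralog Dcp1b at 0.032 ± 0.081 (SE).

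Of the 7 Lsm genes, which encode the ring that binds oligoadenylated 3′ ends, 3 were above 0 and the median was -0.026. Lsm5 was the exception, at 7.35, 7.57 and 7.22 in the labelled KO arrays, against 6.97, 7.08 and 7.06 in the controls. The groups were separate, and the difference was 0.34 ± 0.11 (SE; adjusted p = 0.195). Without labelled KO array 2 it was 0.25. A second probe set of Lsm5 gave 0.33, and the remaining one, with a mean of only 5.46, gave -0.094, so the mean of the 3 gave 0.19. The number of the probe set used lies among those of chromosome 17 genes, such as Lsm2, although Lsm5 is on chromosome 6. Where this probe set maps was not examined, so which locus it reads is unknown. Lsm5 is nevertheless counted in the 11 and the 12 of 44 genes above, and in the 4 called with array weights. The other 6 lay between -0.12 (Lsm2) and 0.046 (Lsm6), all with overlapping groups. Lsm2 to Lsm7 also belong to the nuclear ring that binds U6 RNA, and Lsm1 is the subunit that sets the cytoplasmic ring apart, at -0.036 ± 0.10 (SE; adjusted p = 0.912). Dcps, the scavenger that hydrolyses the cap left after 3′ to 5′ decay, was at -0.092 ± 0.095 (SE).

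Patl1 and Lsm5 had the smallest p-values of the decapping group, and their promoter windows are shown with the same marks. The Lsm5 window is that of the annotated gene on chromosome 6, a locus that its probe set may not read. That of Patl1 is chr19:11912149-11912448 on the plus strand and that of Lsm5 chr6:56704650-56704949 on the minus strand, both GRCm38.p6.
Patl1: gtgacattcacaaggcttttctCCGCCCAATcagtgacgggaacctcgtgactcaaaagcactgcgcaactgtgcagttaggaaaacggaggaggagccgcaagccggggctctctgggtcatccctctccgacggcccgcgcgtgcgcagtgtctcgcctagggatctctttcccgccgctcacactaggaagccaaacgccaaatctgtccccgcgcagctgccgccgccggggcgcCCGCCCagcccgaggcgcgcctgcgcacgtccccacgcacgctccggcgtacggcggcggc
Lsm5: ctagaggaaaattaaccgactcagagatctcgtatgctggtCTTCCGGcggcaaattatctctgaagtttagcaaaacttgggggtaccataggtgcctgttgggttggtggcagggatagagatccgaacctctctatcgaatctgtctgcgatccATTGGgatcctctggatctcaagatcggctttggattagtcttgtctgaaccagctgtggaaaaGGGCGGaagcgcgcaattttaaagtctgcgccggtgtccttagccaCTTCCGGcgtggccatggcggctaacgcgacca
The Patl1 window holds 2 GC boxes, 1 CCAAT box that overlaps the first of them, and 36 CG dinucleotides. The Lsm5 window holds 1 GC box, 1 CCAAT box, 2 ETS cores and 18 CG dinucleotides. Of these 4 windows only that of Lsm5 holds the ETS core, and none holds TATAAA on either strand.

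The 5′ to 3′ exonucleases had differences of opposite sign. Xrn1, the cytoplasmic enzyme that degrades decapped mRNA, read 9.31, 9.55 and 8.93 in the labelled KO arrays, against 8.74, 9.02 and 8.77 in the controls. Labelled KO array 3 lay below control array 2, so the groups overlapped. The difference was 0.42 ± 0.15 (SE; adjusted p = 0.259), 1.34-fold, and it was 0.28 when labelled KO array 2 was left out, against 0.59 when array 3 of that group was. Xrn2, the nuclear enzyme that acts in transcription termination, was at -0.096 ± 0.11 (SE; adjusted p = 0.743). Whether Xrn1 and Xrn2 differed from each other was not tested.

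**Figure D3:**
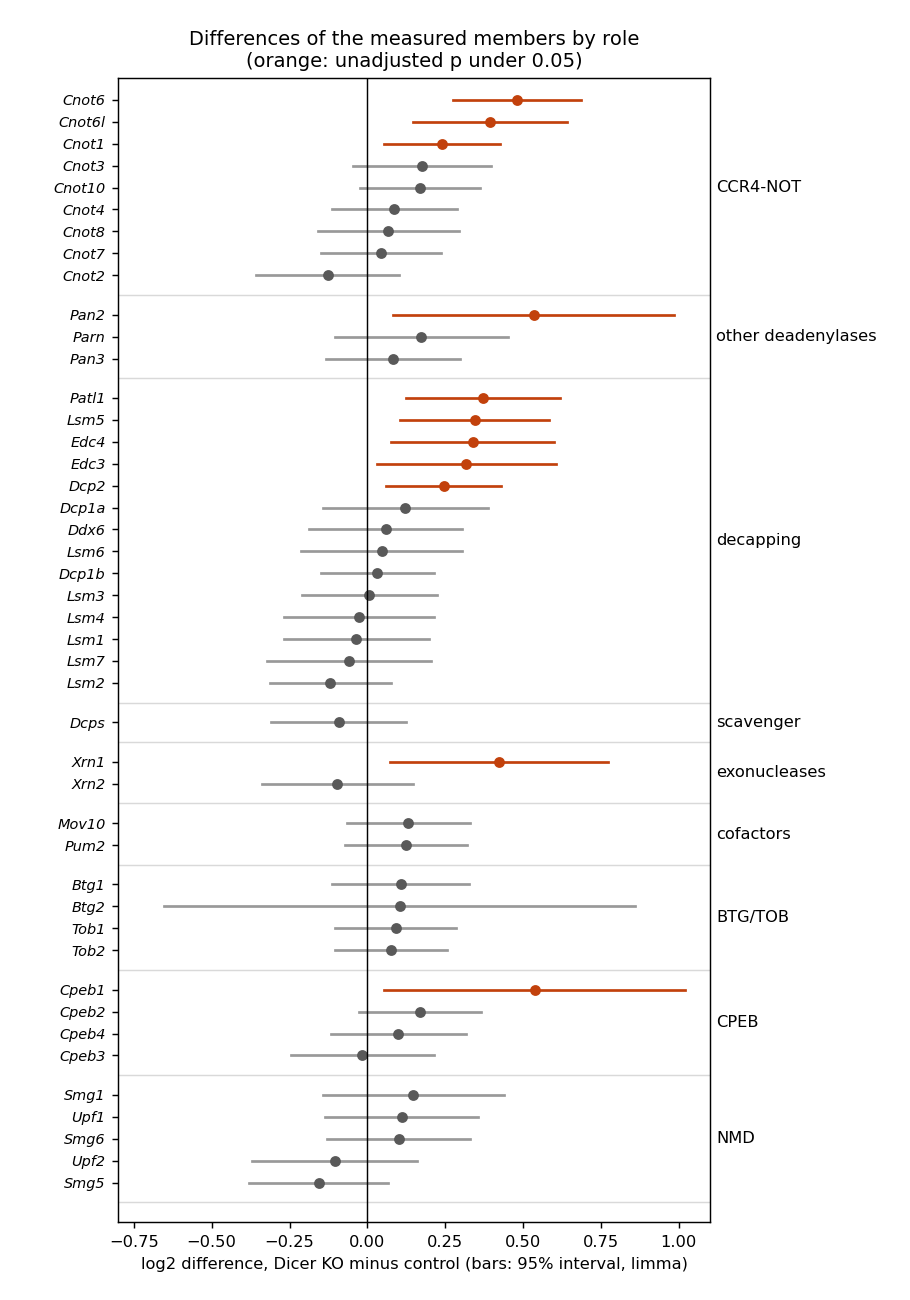
Log2 difference (labelled KO minus control) of each of the 44 measured genes with its 95% interval from limma, grouped by role, with genes of unadjusted p under 0.05 in orange. Cnot6 has the interval farthest from 0 (0.28 to 0.69), and Btg2 has an interval of -0.65 to 0.86.

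RNA-binding adaptors that bring deadenylases to chosen mRNAs had small differences, Cpeb1 aside. The CPEB proteins bind cytoplasmic polyadenylation elements and act at synapses. Cpeb1 read 9.75, 10.41 and 9.45 in the labelled KO arrays, against 9.26, 9.51 and 9.24 in the controls. Labelled KO array 2 stood well above all others, and labelled KO array 3 lay below control array 2. The difference was 0.54 ± 0.21 (SE; adjusted p = 0.298), 1.45-fold, and 0.27 without labelled KO array 2. Cpeb2 was at 0.17 ± 0.086 with separate groups, Cpeb4 at 0.099 ± 0.096 and Cpeb3 at -0.016 ± 0.10 (SE), the last 2 overlapping.

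The BTG and TOB proteins bind the Cnot7 and Cnot8 subunits. All 4 were slightly above 0, from 0.075 (Tob2) to 0.11 (Btg1), and the groups were separate in Tob2 only, 1 of 4 against 9.3% of all genes. Btg2, also an activity-induced gene, read 7.99, 8.07 and 8.29 in the labelled KO arrays, against 7.80, 7.31 and 8.92 in the controls. Its controls spread more widely than its labelled KO arrays, and it had the largest error of the 44 genes, 0.33 (SE). Pum2, a Pumilio protein that recruits CCR4-NOT to its targets, was at 0.12 ± 0.086, and the helicase Mov10, an Argonaute partner, at 0.13 ± 0.087 (SE), with overlap in both.

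Nonsense-mediated decay, which removes mRNAs with premature stop codons, showed no common direction. Of 5 measured genes, 3 were above 0, against 47.3% of all genes. No groups were separate, against 9.3% of all genes higher and 11% lower. With 5 genes, neither count sets this role apart from all genes. The helicase Upf1 was at 0.11 ± 0.11, its kinase Smg1 at 0.15 ± 0.13 and the endonuclease Smg6 at 0.10 ± 0.10 (SE). Upf2, which links Upf1 to the exon junction complex, was at -0.10 ± 0.12, and Smg5, which recruits decay enzymes to phosphorylated Upf1, at -0.16 ± 0.099 (SE; adjusted p = 0.524). The 95% interval for Upf1 was -0.14 to 0.36, so a difference of the size seen in Cnot1 lies within it.

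The labelled KO arrays did not contribute equally. Labelled KO array 2 was the highest of all 6 arrays in 25 of the 44 genes (56.8%), against 20.6% of all genes tested. Among the 11 genes of unadjusted p under 0.05 it was the highest in 9. Labelled KO array 3, highest in the other 2 (Cnot6l and Patl1), was the lowest labelled KO array in 7. All 11 are higher in the labelled KO arrays, so the highest array is almost bound to be 1 of these. No share over all genes picked in the same way was computed. Over the 44 genes the median deviation from the control mean was 0.073, 0.16 and 0.089 in labelled KO arrays 1 to 3, against -0.035, 0.031 and 0.0074 in control arrays 1 to 3. The 3 labelled KO arrays thus lay above the 3 controls in this median. By role, the CCR4-NOT median was 0.13, 0.16 and 0.12 in the labelled KO arrays, against -0.0063, 0.029 and -0.0062 in the controls. That of nonsense-mediated decay was 0.037, 0.23 and 0.023, against 0.0091, 0.11 and -0.098, and here the groups overlapped.

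**Figure D4:**
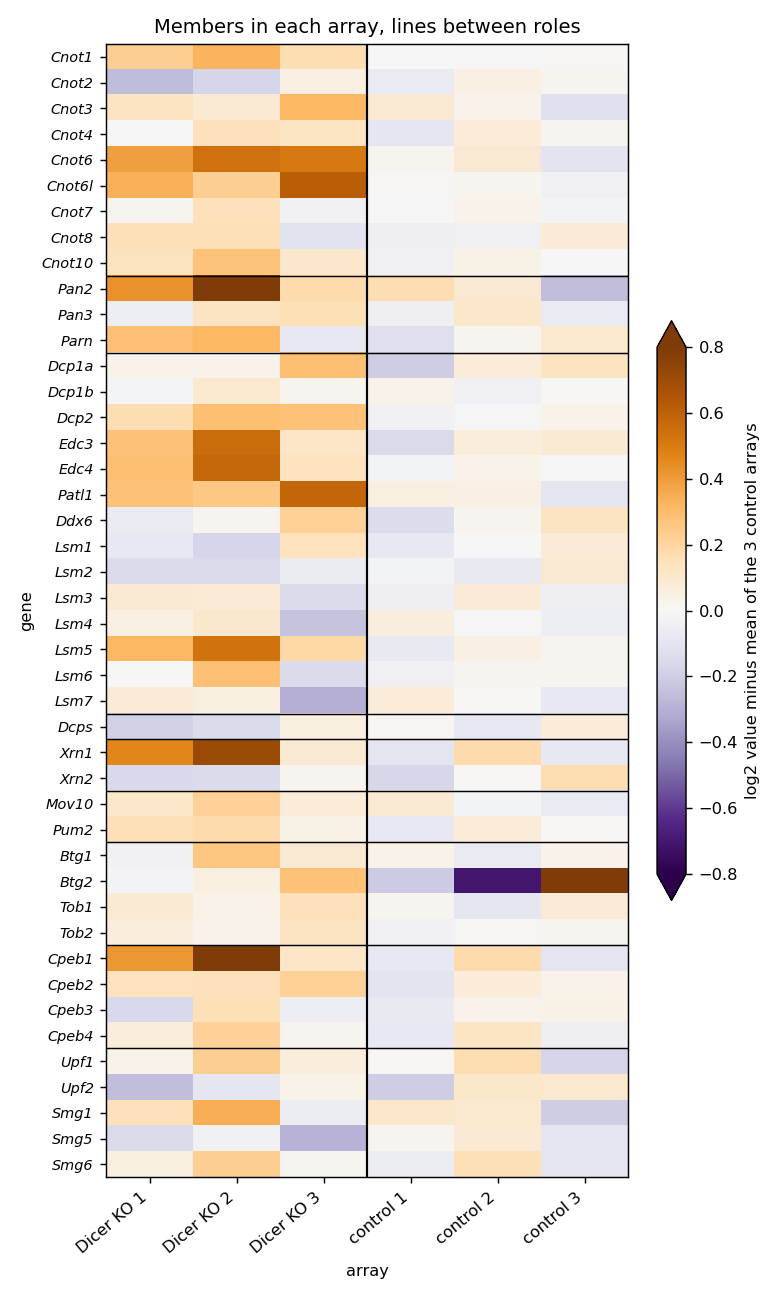
Log2 value of each measured gene in each array minus its mean over the 3 controls, genes in rows by role and arrays in columns, labelled KO arrays left of the line. The colour scale is capped, and labelled KO array 2 in Pan2 and Cpeb1 and control array 3 in Btg2 reach its most intense orange. Btg2 is the row with the widest contrast among the controls.

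Some cell type markers also differed in level between the groups. Reactive astrocyte genes, 5 of 6 of which were measured, were all above 0, with a summed log2 level of 42.7 to 45.3 in the labelled KO arrays, against 40.8 to 41.4 in the controls. Excitatory neuron markers were below 0 in 6 of 7, summing to 73.2 to 73.8 in the labelled KO arrays, against 74.5 to 75.4 in the controls. GABAergic interneuron markers summed to 70.7 to 72.1 in the labelled KO arrays, against 70.0 to 70.7 in the controls, groups that all but touch. Of these 7 markers, 5 were above 0 and 2 below. Labelled KO array 2 had the highest mean of 4 choroid plexus markers, 0.60 above the control mean. It had the lowest means of 7 microglia markers, -0.35, and of the astrocyte markers, -0.11. Labelled KO array 3 had the highest means of reactive astrocyte (0.82), astrocyte (0.32) and microglia (0.36) markers. Choroid plexus markers summed to 27.4 to 29.8 in the labelled KO arrays against 27.2 to 27.6 in the controls, and microglia markers to 55.7 to 60.7 against 57.0 to 59.6. Neither list had a common direction: 2 choroid plexus markers were above 0 and 2 below, and 3 microglia markers above and 4 below. No detection call was used, so which markers lie at background is unknown. The part of these cells, and of the olfactory bulb transcripts of control array 1, in the differences was not tested.

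Other genes of the pathway leaned the same way and none passed the threshold. Of 55 listed exosome, deadenylase, nonsense-mediated decay and RNA-binding genes outside the 44, 49 were measured. Of these, 34 (69.4%) were above 0, against 47.3% of all genes, with a median of 0.095. At an unadjusted p under 0.05, 7 (14.3%) were higher, against 7.01% of all genes, and 2 were lower, against 7.39%. Groups were separate in 11 that were higher (22.4%), against 9.3% of all genes, and in 2 that were lower, against 11%. Exosc8, a subunit of the exosome, which degrades RNA in the 3′ to 5′ direction, read 9.01, 9.20 and 8.79 in the labelled KO arrays, against 8.52, 8.59 and 8.58 in the controls. Its groups were separate, and the difference was 0.44 ± 0.11 (SE; adjusted p = 0.131). Dis3, a catalytic subunit of the exosome, was at 0.45 ± 0.15, the core subunit Exosc3 at 0.31 ± 0.13 and Pnrc2, a decapping cofactor, at 0.35 ± 0.11 (SE). Cnot9, a further CCR4-NOT subunit, was at 0.22 ± 0.084 and Zc3h12c, of the Regnase family of endonucleases, at 0.26 ± 0.095 (SE). Below 0 were Zc3h12b of the same family at -0.33 ± 0.10 and Caprin1, an RNA granule protein, at -0.34 ± 0.12 (SE).

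**Figure D5:**
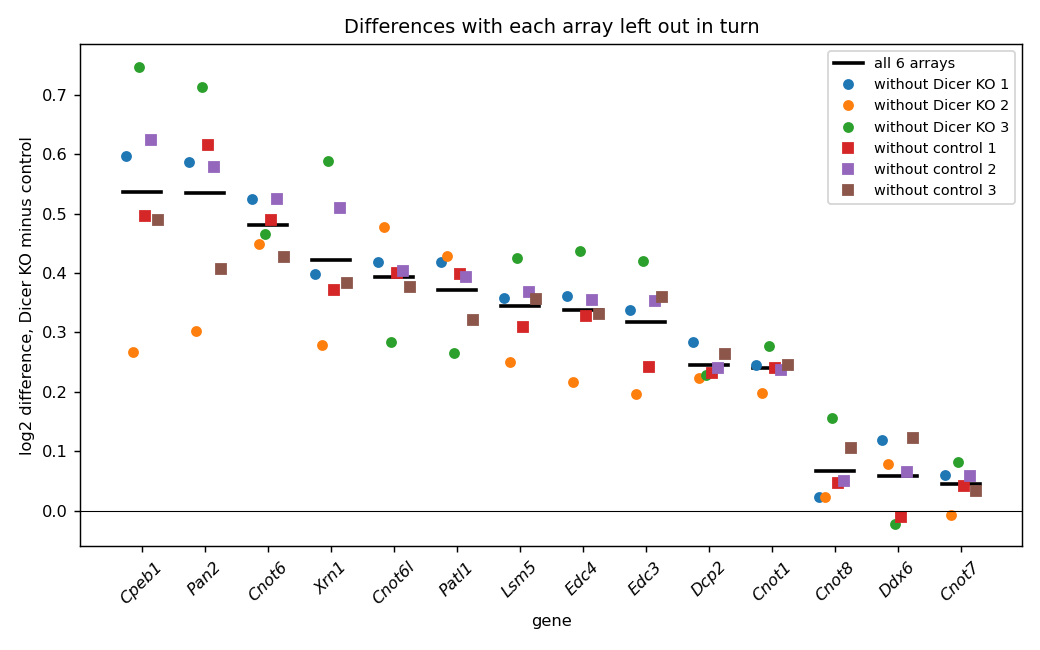
Log2 difference (labelled KO minus control) of 14 genes, the 11 with an unadjusted p under 0.05 and Cnot7, Cnot8 and Ddx6, with all 6 arrays (black bar) and with each array left out (circles for labelled KO arrays, squares for controls). Leaving out labelled KO array 2 lowers Cpeb1 to 0.27 and Pan2 to 0.30, while Cnot6 stays between 0.43 and 0.52.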

How the data were processed

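Total RNA (200 ng per animal) came from the miRVana PARIS kit. Each sample was labelled by the Affymetrix whole-transcript protocol for 1 array, per the labels' protocols. The authors deposited log2 values, and the submitters' processing notes name RMA and limma, with no version. RMA shrinks differences of dim transcripts, and its quantile step hides a shift common to most genes. The number of arrays limits the precision, and p-values reflect only how far these animals differ.

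Of 35557 rows, 21789 had 1 gene symbol in the probe table, 1621 had several and were left out, and 12147 had none. Symbols were updated for 21698 rows by gene identifier (RefSeq table, GRCm38.p6). Of several probe sets of a gene (999 genes), the brightest on average was kept. No pair of arrays was identical. Differences were fitted over all 19938 genes with limma 3.58.1 in R 4.3.3 (lmFit, eBayes, group as the only term), two-sided, with Benjamini-Hochberg adjustment and a threshold of 0.05. The fit was also run on simulated data with independent noise, without correlated genes or arrays of unequal quality. That run sets no error rate for the differences reported here.

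The genes and lists were chosen with earlier results of these data known. By rule, values by array are given for genes of the 44 with an unadjusted p under 0.05 and for Cnot1, Cnot7, Cnot8, Dcp2, Ddx6 and Xrn1. Those of Btg2 and Exosc8 were added after their values were seen. Outside the 44, the 8 decay genes of smallest p are named. Markers were listed for excitatory neurons, GABAergic interneurons, astrocytes, reactive astrocytes, oligodendrocytes, microglia, endothelium and pericytes, meninges and fibroblasts, choroid plexus, olfactory bulb and the Y chromosome. Mean differences of further lists were 0.12 (GABAergic interneurons), 0.092 (astrocytes), 0.13 (oligodendrocytes), 0.11 (endothelium and pericytes) and 0.17 (meninges and fibroblasts). Alternatives were a block for the array number, leaving out each array, median centring, a second quantile normalization, dim genes left out, the mean of probe sets, a trended and robust prior, array weights, sex as a covariate and a threshold of 0.1.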

Additional observations from a re-analysis of the deposited data

How the results depend on the processing

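Of the differences of 14 genes under 14 alternatives, 188 of 196 kept their direction and, as with the 14 genes themselves, did not pass the threshold. With the mean of probe sets Lsm5 was at 0.19 and Cnot1 at 0.17 (unadjusted p = 0.105 and 0.177), and 9 of the 44 genes were higher at an unadjusted p under 0.05, against 6.94% of all genes. Array weights carried 4 past it, Cnot6 at 0.39 (adjusted p = 0.0211), Cnot6l at 0.34 (adjusted p = 0.0383), Lsm5 at 0.33 (adjusted p = 0.0451) and Xrn1 at 0.44 (adjusted p = 0.0477). Ddx6 changed sign with array weights (-0.014). With 1 array left out it ranged from -0.022 (labelled KO array 3) through -0.011 (control array 1) to 0.12, and Cnot7 from -0.0078 (labelled KO array 2) to 0.082, none of them past the threshold. Genes called over all genes numbered 56, against 215 with the array number as a replicate block, 95 without genes whose mean was below 6, 1116 with array weights, 0 with sex as a covariate and 320 at an adjusted p under 0.1, and 0 to 129 with 1 array left out. The 0 with sex as a covariate, from limma, stands beside 2292 genes at an unadjusted p under 0.05, and the fits without 1 array had 2197 to 3373 such genes. Of the 44 genes limma called 0 (11 at an unadjusted p under 0.05), or 4 with array weights and 1 at an adjusted p under 0.1, and of the other decay genes 0 (9 at an unadjusted p under 0.05), or 3 with array weights. The causes were not tested. The replicate block called none of the 44 genes (lowest adjusted p = 0.0528, Cnot6). Same-numbered arrays deviated together with r of 0.089, 0.17 and 0.29, and 5 of 6 arrays correlated best with their own number. The exception was control array 1, at 0.094 with labelled KO array 2. As 1 pair is below 0.1 and the labels name no shared litter or day, the block is given only here. The median difference of the 44 genes moved by less than 0.040 under all 14 alternatives run. That value is the pooled SD, within groups, of the medians of single arrays, and not the error of the difference. The median still fell from 0.10 to 0.067 without control array 1 and to 0.068 without labelled KO array 2. Signal over background is unknown.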
